A study of Drosophila melanogaster with 32 samples.

Results

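Seminal fluid protein genes were examined on expression arrays of whole mated Drosophila melanogaster females. The members were the genes whose symbol starts with Acp (accessory gland protein) or Sfp (seminal fluid protein) followed by a digit, read from probe sets annotated to 1 gene. This gave 21 genes, each with 1 probe set, out of 11982 genes with such a probe set and 18769 probe sets tested. Of the 21, 20 are named as seminal fluid or accessory gland proteins. The other one, Acp65Aa, has an Acp symbol but stands for an adult cuticle protein, and it was kept under the rule and described apart. A further 6 probe sets that name such a gene together with another gene were left out.

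All flies descended from LHM, an outbred laboratory stock, through 8 populations kept for 46 generations. In 4 of them, Mono1 to Mono4, flies were limited to 1 mating per generation, and the other 4, Prom1 to Prom4, stayed on the usual promiscuous protocol. Females of each population were paired with males of their own population or with males of the same-numbered population of the other regime, and were frozen whole 6 h after mating. This gave 8 arrays in each of 4 groups, which were Mono females with Mono males, Mono females with Prom males, Prom females with Mono males and Prom females with Prom males. The 16 crosses were each measured on 2 arrays, biological replicates per the labels, with 1 array per batch. All females had mated and no virgin females were analysed here, so no value below is a response to mating.

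Seminal fluid proteins are made in the male accessory glands, ejaculatory duct and ejaculatory bulb and pass to the female with the sperm at mating. There they act on ovulation, egg laying, sperm storage, feeding, immunity and the readiness to mate again. They are among the best studied targets of sexual conflict in this species, because what raises a male's share of paternity can be costly to the female. Their genes are transcribed mostly in the male, so in a mated female their probe sets read transcripts that came with the ejaculate, any transcription by the female herself, and the background of the probes. These sources could not be told apart in whole bodies, nor could fewer cells of a type from less RNA per cell.

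Signals are deposited log2 values from RMA, so 1 unit is a factor of 2 in summarised intensity. Probe sets differ in how strongly they bind, so the signals of different genes give no order of transcript abundance. The table holds no detection calls. Genes on the Y chromosome, which females do not carry, served as a measured background, although the sperm in a mated female may hold some of their transcripts. The 7 Y-linked genes with a probe set averaged 2.71 to 4.38 (median 2.84), and the brightest of them was Pp1-Y2.

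Signals of 19 of the 20 seminal fluid genes were low. Their means over the 32 arrays ran between 2.77 and 4.67 with a median of 3.20, against a median of 5.44 over all probe sets. No array value of these 19 genes was below 2.55 or above 4.96. Of all 21 members, 18 had a mean at or below that of Pp1-Y2, 8 at or below that of the next brightest Y-linked gene, kl-2 (3.16), and 2 at or below the Y-linked median. The count thus depends on which Y-linked gene sets the level. Many other probe sets are as low. Of all probe sets, 36.3% had a mean below that of Acp32CD (4.33), which is close to the Pp1-Y2 level. A mean below that of Acp29AB (3.17), close to the kl-2 level, was found for 6.64%. In addition 15 members were at or below the median of 32 testis genes (3.81), and 15 were at or below the median of the 183 array control probe sets (3.70). No array was more than 0.43 from the median of its gene among the 20 seminal fluid genes.

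**Figure D1:**
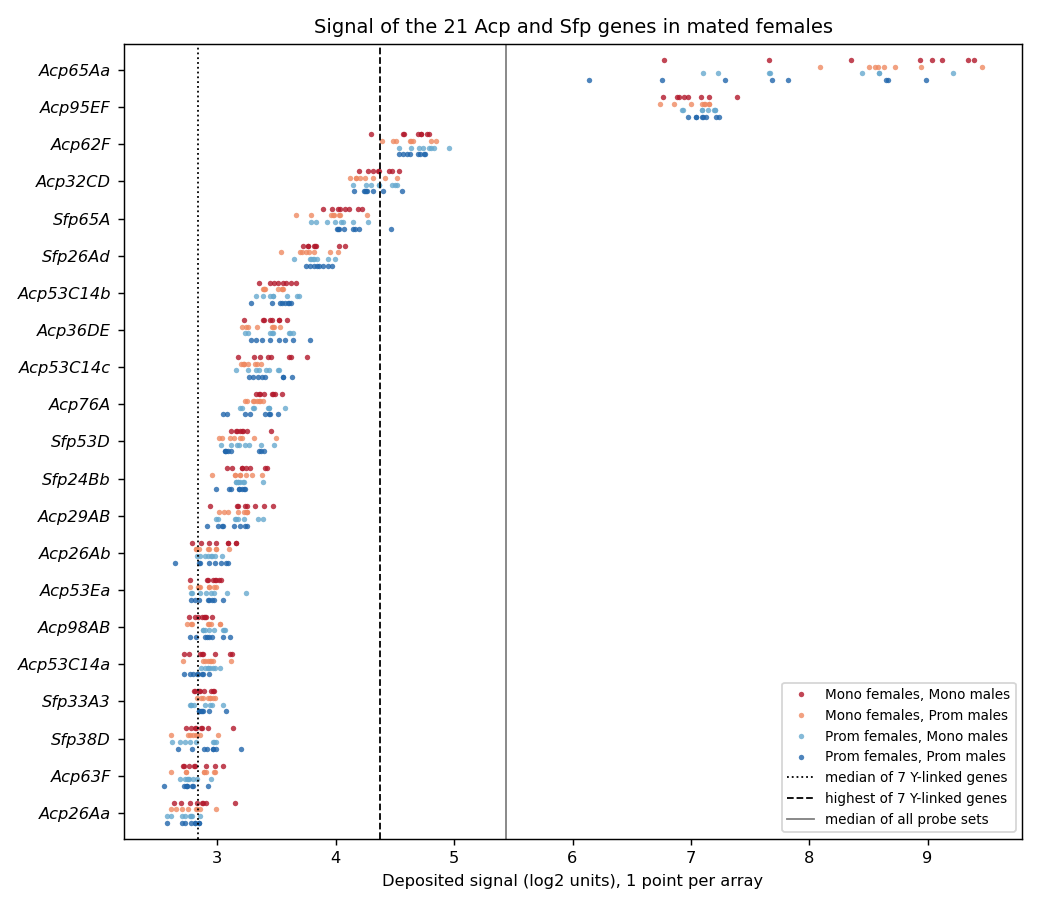
Deposited signal in log2 units on the horizontal axis for the 21 genes, ordered by mean, with 1 point per array and colours for the 4 groups of 8 arrays. Vertical lines mark the median (2.84) and highest (4.38) mean of the 7 Y-linked genes and the median of all probe sets (5.44); 19 genes lie left of the last line in every array, while Acp95EF and Acp65Aa lie right of it in every array.

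The genes with the best known roles in the female lay in this low range. Acp26Aa, or ovulin, raises the ovulation rate of the female after mating. It ran between 2.63 and 3.14 (median 2.85) in Mono females with Mono males, 2.60 and 2.98 (2.78) in Mono females with Prom males, 2.57 and 2.85 (2.75) in Prom females with Mono males, and 2.57 and 2.85 (2.79) in Prom females with Prom males. The 4 groups overlapped. Its neighbour Acp26Ab averaged 2.95 and its arrays spanned 2.64 to 3.16.

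Acp36DE is a glycoprotein needed for sperm to be stored efficiently in the female. It ran between 3.22 and 3.59 (median 3.45) in Mono females with Mono males, 3.21 and 3.53 (3.40) in Mono females with Prom males, 3.23 and 3.64 (3.47) in Prom females with Mono males, and 3.28 and 3.78 (3.48) in Prom females with Prom males. The groups overlapped here as well. Acp29AB, a lectin-like protein that helps to retain stored sperm, averaged 3.17, with arrays between 2.91 and 3.47.

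Acp62F, a protease inhibitor of the trypsin-inhibitor type, had the highest signal of the 19. It ran between 4.30 and 4.78 (median 4.71) in Mono females with Mono males, 4.39 and 4.85 (4.63) in Mono females with Prom males, 4.53 and 4.96 (4.76) in Prom females with Mono males, and 4.53 and 4.75 (4.66) in Prom females with Prom males. Acp76A is a serpin, a member of a family of serine protease inhibitors, and averaged 3.35. Acp53Ea, Acp53C14a, Acp53C14b and Acp53C14c are related genes that neighbour each other on chromosome arm 2R, and averaged 2.92, 2.90, 3.50 and 3.38. Acp32CD (4.33), Sfp65A (4.04) and Sfp26Ad (3.83) were the next brightest of the low-signal genes. Sfp53D, Sfp24Bb, Acp98AB, Sfp33A3, Sfp38D and Acp63F had means between 2.80 and 3.21.

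The low signals varied little among arrays. The SD over the 32 arrays was 0.08 to 0.16 for each of the 20 seminal fluid genes, against a median SD of 0.13 over the 10101 probe sets with a mean under 6. Their correlations with each other were low. Over the 171 pairs among the 19 low-signal genes, the median Pearson correlation across the 32 arrays was 0.068, with single pairs between -0.35 and 0.55. Within the 16 arrays of each batch the medians were 0.063 in batch 1 and 0.039 in batch 2. The 30 testis genes with a mean under 6 had a median of 0.11 over their own 435 pairs. These are descriptions of arrays that share batches and normalization.

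Most other genes of the male reproductive tract had low signals too. Of 34 listed accessory gland, ejaculatory duct and bulb genes without an Acp or Sfp name, 24 had a probe set. A mean under 6 was found for 23 of the 24, and for 10101 of all 18769 probe sets. The median of the 24 means was 3.66, against 5.44 over all probe sets. The sex peptide gene SP, whose product switches the female to egg laying and refusal of further mates, averaged 3.61 with arrays between 3.38 and 3.89. Dup99B, a relative of sex peptide from the ejaculatory duct, averaged 3.80. EbpIII, named as an ejaculatory bulb protein, had a mean of 12.92. Spn38F, a serpin gene, had a low mean of 3.64 but ran between 2.71 and 6.57, with population means of 6.06 in Mono4, 3.78 in Mono3 and 4.50 in Prom3 females and at most 3.07 in the other 5 populations. It differed among populations of a regime (limma adjusted p = 4.32e-07). Among testis genes, 30 of the 32 with a probe set were under 6, and the median of the 32 means was 3.81. The 14 female genes, for yolk, chorion, vitelline membrane and spermathecal secretion, averaged 7.03 to 14.73. Their mean was 10.83 in 1 array, from Mono3 females with Mono males in batch 2, and 11.6 to 12.7 in the other 31 arrays.

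Acp95EF was the one seminal fluid gene with a signal above the median probe set, at 7.06 ± 0.14 (SD over 32 arrays). It ran between 6.77 and 7.39 (median 6.96) in Mono females with Mono males, 6.74 and 7.16 (7.10) in Mono females with Prom males, 6.93 and 7.21 (7.12) in Prom females with Mono males, and 6.98 and 7.23 (7.10) in Prom females with Prom males. No group stood apart. In the RefSeq annotation Acp95EF overlaps Spase22-23, which encodes a subunit of the signal peptidase that cleaves secreted proteins. The probe set of Spase22-23 averaged 6.29 (5.91 to 6.63), and the correlation of both signals over the 32 arrays was 0.23, with 0.27 in batch 1 and 0.065 in batch 2. Which of the overlapping genes gives the Acp95EF signal was not tested. Overlaps with another gene also occur at Acp62F, Acp32CD, Sfp65A, Acp36DE, Sfp24Bb, Sfp33A3 and Acp63F.

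Females of the Mono and the Prom populations were compared to ask whether the regime in which a female evolved changes these signals after mating. The 4 arrays of each population were averaged, so that 4 populations stood against 4. With limma, 0 of 21 members passed an adjusted p of 0.05, as did 0 of all 18769 probe sets (0%). At an unadjusted p under 0.05 the counts were 0 members and 1312 probe sets (6.99%). The difference, Mono minus Prom, was above 0 in 9 members and below 0 in 12. Its median was -0.0085 over the members and -0.0041 over all probe sets.

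The members with the lowest p in this comparison differed by at most 0.076 units in either direction, apart from the cuticle gene. Acp62F averaged 4.63 in Mono females and 4.70 in Prom females, a difference of -0.071 ± 0.035 (SE, n = 4 populations per regime, limma adjusted p = 0.721). Acp26Aa averaged 2.81 in Mono females and 2.74 in Prom females (0.064 ± 0.031, limma adjusted p = 0.721). Acp63F averaged 2.84 in Mono females and 2.76 in Prom females (0.076 ± 0.040, limma adjusted p = 0.751). Within single batches Acp62F differed by -0.16 in batch 1 and 0.014 in batch 2, and Acp63F by 0.20 in batch 1 and -0.044 in batch 2, with 0.049 for Acp63F without Prom3.

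Acp95EF averaged 7.02 in Mono females and 7.10 in Prom females, a difference of -0.081 ± 0.057 with a limma adjusted p of 0.835. This was -0.14 in batch 1 and -0.019 in batch 2, and -0.12 without Mono2 and -0.030 without Mono4. Over the 20 seminal fluid genes the differences ran between -0.081 and 0.076, and their 95% intervals between -0.21 and 0.18. The 4 Mono and 4 Prom population means overlapped for 21 of 21 members, while 4.08% of all probe sets had population means that did not overlap. Among the other male tract genes 10 were above 0 and 14 below, and among the Y-linked genes 2 above and 5 below, with 0 passing in either list.

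**Figure D2:**
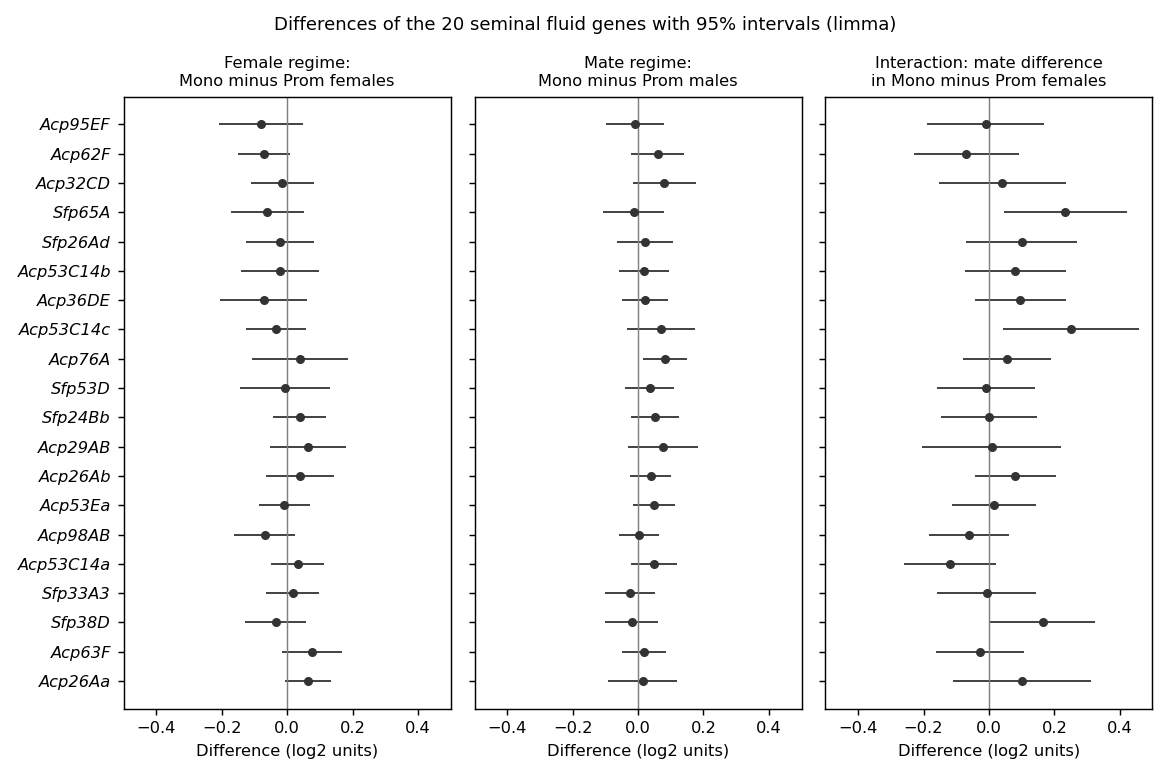
Difference in log2 units with its 95% interval from limma for the 20 seminal fluid genes, ordered by mean signal, for the female regime (left), the mate regime (middle) and their interaction (right). In the left panel all intervals include 0; those of Acp76A in the middle panel and of Sfp65A, Acp53C14c and Sfp38D in the right panel do not, and none of these passed adjustment over all probe sets.

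Mates of both regimes were compared within the females of each population to ask whether the evolutionary history of the male changes what is read in the female. The contrast is the mean of 8 differences, Mono males minus Prom males, which rest on 4 pairs of male populations. With limma 0 of 21 members and 0 of 18769 probe sets (0%) passed. At an unadjusted p under 0.05 there were 1 member and 1977 probe sets (10.5%). The one member was the serpin Acp76A, at 3.39 after Mono males and 3.31 after Prom males, a difference of 0.082 ± 0.030 (SE, n = 8 female populations, limma adjusted p = 0.420). It was higher after Mono males in 7 of 8 female populations, by 0.070 in batch 1 and 0.0945 in batch 2.

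Acp32CD (4.37 after Mono males and 4.29 after Prom males) and Acp62F (4.70 after Mono males and 4.64 after Prom males) were each higher after Mono males in 7 of 8 populations, with limma adjusted p of 0.537 and 0.572. Acp53Ea was at 2.95 after Mono males and 2.90 after Prom males, higher in 6 of 8 populations (limma adjusted p = 0.567). The difference was 0.025 in batch 1 and 0.094 in batch 2 for Acp62F, with 0.094 without Mono4, and 0.064 in batch 1 and 0.032 in batch 2 for Acp53Ea, with 0.031 after cyclic loess. Acp95EF differed by -0.0096 ± 0.040, with a 95% interval of -0.099 to 0.080. Over the 20 seminal fluid genes the 95% intervals ran between -0.11 and 0.18.

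Most members lay slightly on the same side. The mate difference was above 0 in 17 of 21 members with a median of 0.036, and above 0 in 51.3% of all probe sets with a median of 0.0016. Dim probe sets leaned the same way: of the 10101 with a mean under 6, 64.55% were above 0, with a median of 0.019. Among the other male tract genes 17 of 24 were above 0, among testis genes 21 of 32, and among the Y-linked genes 2 of 7. After cyclic loess between arrays the dim probe sets stood at 51.65% and the members at 15 of 21 with a median of 0.017. With each array centred on the Y-linked genes 18 of 21 members were above 0, as were 72.96% of dim and 61.44% of all probe sets. The median over members was above 0 in Mono1, Mono2, Mono3, Prom2, Prom3 and Prom4 females (0.024 to 0.083) and below 0 in Mono4 (-0.022) and Prom1 females (-0.027). The part of array normalization and of signal level in this was not tested further.

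Within Mono females 0 of 21 members passed (0% of all probe sets). Of the 21 members 16 were above 0, as were 51.3% of all and 60.6% of dim probe sets. At an unadjusted p under 0.05 there were 2 members and 1608 probe sets (8.57%). Acp53C14c, one of the neighbouring genes on arm 2R, averaged 3.46 after Mono males and 3.27 after Prom males (limma adjusted p = 0.483), higher in 4 of 4 Mono populations. Within Prom females 0 members passed as well (0% of all probe sets). Here 11 members were above 0, as were 52.1% of all and 61.3% of dim probe sets. An unadjusted p under 0.05 was found for 1 member and 1766 probe sets (9.41%). That member was Acp53C14a, at 0.11 ± 0.045 higher after Mono males, in 4 of 4 Prom populations (limma adjusted p = 0.501). The counts of populations for both genes use the mean of the 2 arrays of a cross.

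Whether the mate difference depends on the female's own regime was tested as the interaction, the mate difference in Mono females minus that in Prom females. It cannot be told apart from the contrast of mates from the female's own population with mates from another. With limma 0 of 21 members and 0 of 18769 probe sets (0%) passed, and 3 members and 1367 probe sets (7.28%) had an unadjusted p under 0.05. The median was 0.015 over the members and -0.0003 over all probe sets, and 12 of 21 members were above 0.

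The 3 members were Sfp65A, Acp53C14c and Sfp38D. For Sfp65A the mate difference was 0.019, 0.20, 0.26 and -0.068 in Mono1 to Mono4 females and -0.0021, -0.27, -0.14 and -0.10 in Prom1 to Prom4 females. The means were 0.10 in Mono females and -0.13 in Prom females, an interaction of 0.23 ± 0.085 (limma adjusted p = 0.664). For Acp53C14c it was 0.24, 0.20, 0.058 and 0.28 in Mono1 to Mono4 females and 0.13, 0.089, -0.18 and -0.26 in Prom1 to Prom4 females.

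Acp53C14c was thus above 0 in every Mono population and on both sides of 0 in the Prom populations, with an interaction of 0.25 ± 0.094 (limma adjusted p = 0.664). These signs are of means over 2 batches. Mono4 females read 3.31 after Mono males and 3.32 after Prom males in batch 1. Mono3 females read 3.17 after Mono males and 3.26 after Prom males in batch 2. In every other Mono population and batch the value after Mono males was the higher. Sfp38D had mean mate differences of 0.063 in Mono females and -0.10 in Prom females, an interaction of 0.16 ± 0.0725 (limma adjusted p = 0.685). The interaction of Sfp65A was 0.24 in batch 1 and 0.22 in batch 2, and that of Acp53C14c 0.28 in batch 1 and 0.22 in batch 2. That of Sfp38D was 0.093 in batch 1 and 0.24 in batch 2, and 0.0975 without Prom4. The cuticle gene Acp65Aa had the next lowest p. Its mate difference was -0.11 in Mono females and 0.32 in Prom females, an interaction of -0.43 ± 0.22 (limma adjusted p = 0.712).

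**Figure D3:**
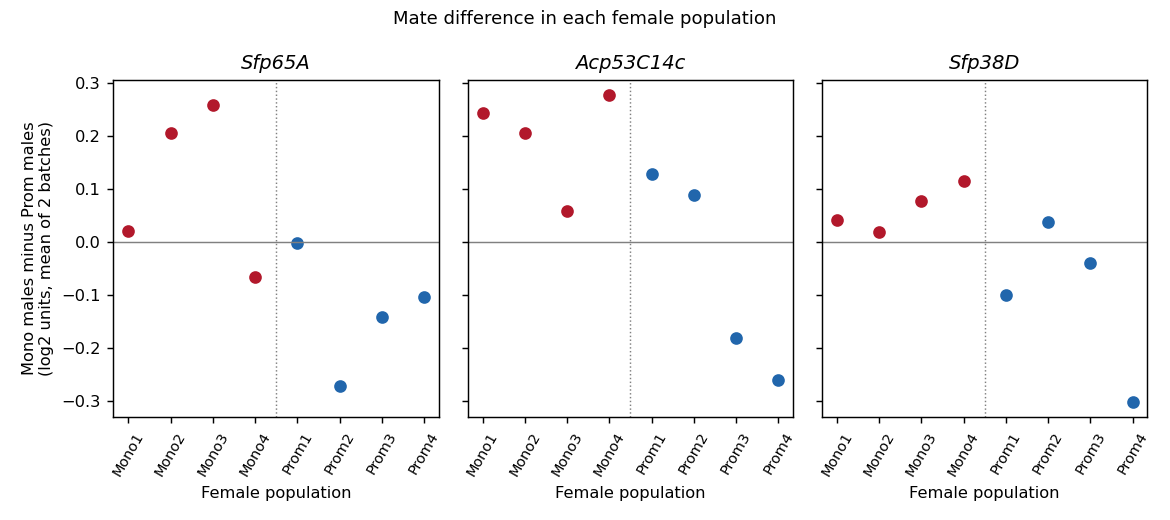
Mate difference, Mono males minus Prom males, in log2 units (mean of the 2 batches) in the females of each population for the 3 genes with the lowest interaction p; red points are Mono females and blue points Prom females. Sfp65A lies above 0 in 3 of 4 Mono populations and below 0 in the 4 Prom populations, Acp53C14c above 0 in the 4 Mono populations and in 2 Prom populations, and Sfp38D above 0 in the 4 Mono populations and in 1 Prom population.

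Populations of one regime were compared with a moderated F test over the 32 arrays to ask how far replicate populations had come to differ. Female and male populations of a number always met, so a population difference may belong to either sex. With limma 2 of 21 members passed, against 13.7% of all probe sets, and 4 members had an unadjusted p under 0.05, against 26.0% of all probe sets. The 2 members were Acp65Aa and Acp76A. The range of the 8 population means was 0.10 to 0.32 for the 20 seminal fluid genes, which is at most a factor of 1.25.

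Acp76A differed among populations at a low signal (F = 5.13, limma adjusted p = 0.0242). The 4 arrays of a female population, given as batches 1 and 2 with Mono mates and then batches 1 and 2 with Prom mates, were 3.46, 3.36, 3.23 and 3.25 in Mono1, 3.36, 3.54, 3.36 and 3.33 in Mono2, 3.40, 3.47, 3.38 and 3.30 in Mono3, and 3.33, 3.48, 3.35 and 3.31 in Mono4. They were 3.44, 3.30, 3.44 and 3.40 in Prom1, 3.57, 3.42, 3.52 and 3.44 in Prom2, 3.43, 3.31, 3.28 and 3.08 in Prom3, and 3.19, 3.21, 3.05 and 3.23 in Prom4. The Mono population means lay within 3.32 to 3.40, and the Prom means ran between 3.17 in Prom4 and 3.49 in Prom2, whose arrays did not overlap.

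The call of Acp76A rested on these 2 Prom populations. Its limma adjusted p was 0.198 without Prom2 and 0.206 without Prom4. With 1 array left out at a time it passed in 26 of 32 cases and missed in 6, in each of which the array was from Prom2 or Prom4 females, with adjusted p between 0.0146 and 0.0845 over the 32. Acp53C14b (limma adjusted p = 0.152) and Acp36DE (0.171) came next and did not pass.

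**Figure D4:**
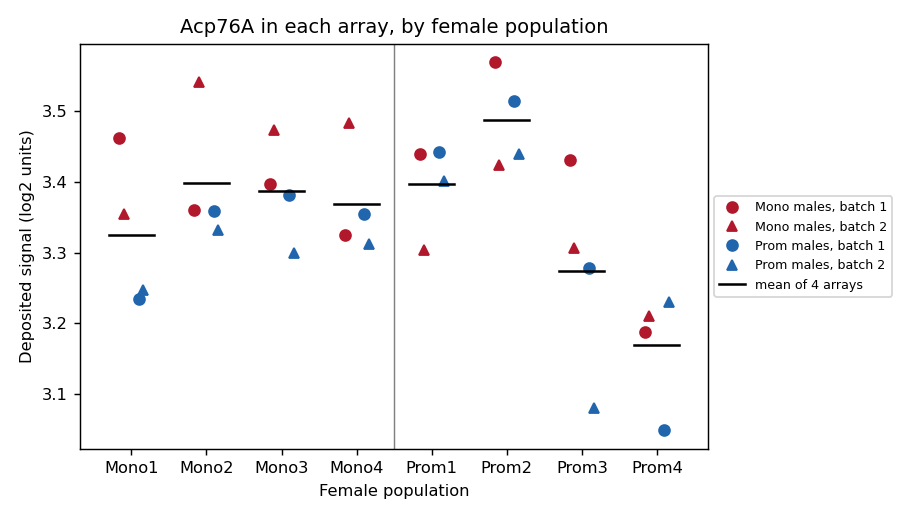
Signal of Acp76A in log2 units in each of the 32 arrays by female population, with colour for the regime of the male, shape for the batch and a line for the mean of 4 arrays. Population means lie between 3.17 (Prom4) and 3.49 (Prom2), and those of Mono1 to Mono4 between 3.32 and 3.40.

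The widest differences among populations were in the cuticle gene Acp65Aa, which is no seminal fluid gene by its name. Its 4 arrays, in the same order, were 6.77, 8.35, 8.09 and 8.55 in Mono1, 9.04, 7.66, 8.58 and 8.50 in Mono2, 9.40, 8.93, 8.95 and 9.46 in Mono3, and 9.34, 9.12, 8.63 and 8.73 in Mono4. They were 7.66, 7.10, 7.29 and 6.76 in Prom1, 9.22, 8.59, 8.98 and 8.67 in Prom2, 7.23, 7.67, 7.82 and 6.14 in Prom3, and 8.59, 8.45, 7.68 and 8.65 in Prom4. Prom1 and Prom3 females were low in all their arrays, at 7.82 or below, while Mono3, Mono4 and Prom2 females were at 8.59 or above in all of theirs.

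Population means of Acp65Aa ran between 7.20 in Prom1 and 9.18 in Mono3, a range of 1.98 or 3.95-fold, and 99.5% of all probe sets had a narrower range. The F test among populations gave 7.78 (limma adjusted p = 0.00356), and the call held with each of the 32 arrays left out in turn (adjusted p 0.000472 to 0.0119), the Mono3 array with low female genes included. Replicate arrays of a cross also differed, with an SD of 0.56. The population means of the regimes overlapped, and Mono females averaged 8.63 and Prom females 7.91, a difference of 0.73 ± 0.41 (95% interval -0.21 to 1.67, limma adjusted p = 0.764), with 0.54 in batch 1 and 0.91 in batch 2. Cuticle genes annotated beside it had narrower ranges of population means, and most of them had low signals. Lcp65Aa, a larval cuticle protein gene, averaged 7.65 with a range of population means of 0.0625. The other 6 neighbours measured had means of 3.89 to 5.31 and ranged by 0.17 to 0.28. The median range was 0.2005 over dim probe sets and 0.2055 over all probe sets. Whether the low signals of the neighbours narrow their ranges was not tested.

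**Figure D5:**
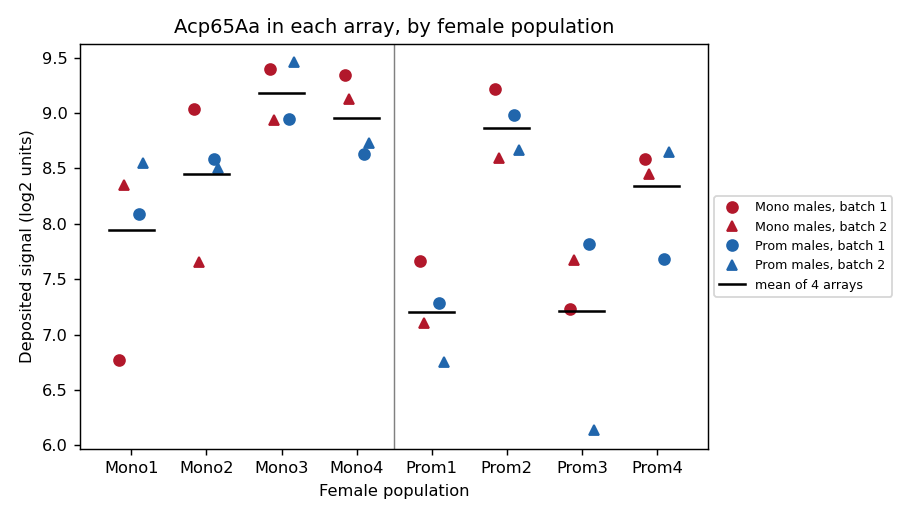
Signal of Acp65Aa in log2 units in each of the 32 arrays by female population, with colour for the regime of the male, shape for the batch and a line for the mean of 4 arrays. Means range between 7.20 (Prom1) and 9.18 (Mono3), and Mono and Prom populations overlap.

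The batches were compared because each cross had 1 array in each. With limma 2 of 21 members passed, both lower in batch 2, against 19.8% of all probe sets. Acp36DE averaged 3.38 in batch 2 and 3.51 in batch 1 (-0.13 ± 0.039, SE, n = 16 crosses, limma adjusted p = 0.0184) and was lower in batch 2 in 13 of 16 crosses. Sfp38D averaged 2.79 in batch 2 and 2.91 in batch 1 (-0.12 ± 0.043, limma adjusted p = 0.0485), lower in 10 of 16 crosses. In all 18 of 21 members were lower in batch 2, as were 64.9% of the 10101 dim probe sets and 52.46% of all probe sets.

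Neither batch call held after cyclic loess between arrays, although the differences were nearly as large, at -0.11 for Acp36DE (limma adjusted p = 0.0718) and -0.10 for Sfp38D (limma adjusted p = 0.0974). The members then stood at 9 of 21 above 0, against 50.55% of dim and 52.45% of all probe sets. The excess of 3' over 5' signal in control transcripts, a measure of RNA quality, moved with batch too. It was 2.91 in batch 2 and 1.91 in batch 1 for actin, and higher in batch 2 in 16 of 16 crosses. Its part in the batch difference of these genes was not tested.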

How the data were processed

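The authors deposited log2 values from 32 arrays, with 1 value for each probe set. The submitters' processing notes name RMA and the affy package, without versions. Per the labels' protocols, total RNA of whole females was biotin-labelled by in vitro transcription. RMA gives all arrays the same intensity distribution, which takes out a shift common to most genes, and low values lie near a floor where differences are compressed. Whether this was done in 1 run was not stated. Medians per array were 5.41 to 5.50. The correlation between both arrays of a cross was 0.996 to 0.998, and 0 pairs of arrays were identical.

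Of 18952 probe sets, 183 array controls were left out. The platform annotation gave 1 gene for 13647 of the rest, several for 402 and none named here for 4720. All 21 members matched RefSeq (assembly Release 6 plus ISO1 MT) by gene ID; it served for symbols, chromosome arms and overlapping or neighbouring genes, and no coordinates are given because the build of the array annotation is not stated.

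Tests used limma 3.58.1 in R 4.3.3, two-sided, with Benjamini-Hochberg adjustment over 18769 probe sets and a threshold of 0.05. The female regime was tested on 4 against 4 population means. The mate regime, its values within each female regime, and the interaction came from 16 cross means with female population as a block (6 residual degrees of freedom). Population and batch differences were fitted over the 32 arrays with terms for cross and batch (15 residual degrees of freedom). The fits were tested on simulated data. The simulated differences were far larger than those of the seminal fluid genes, so they do not show what could be detected at these sizes. Populations that share a number share mates, so this pairing comes from the labels, and the fit with population number as a block is given with the alternatives. Precision is limited by the number of populations, 4 per regime, and by the number of arrays.

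The members and the lists of comparison genes were chosen with earlier results of these data known. Named with values were the 8 brightest members, those with the lowest p in each comparison (up to 4), those with the widest range of population means (up to 6) and those with known roles. Other members given with values were named after their values were seen. Alternatives were cyclic loess, centring on Y-linked genes, only probe sets with a mean of at least 6, single batches, left-out populations and arrays, and other replicate structures.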

Additional observations from a re-analysis of the deposited data

Results flagged for a closer look

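In 8 of 84 groups of 8 arrays (21 genes in 4 groups), 1 array lay far from the other 7 by Dixon's criterion. Chance flags about 1 in 20 groups, and the 8 cases came from 7 arrays, all in batch 1, since Sfp53D and Acp53Ea share one. In Mono females with Mono males, Acp62F had a low array at 4.30 (nearest 4.57) in Mono4, Sfp53D a high one at 3.45 (nearest 3.25) and Acp53Ea a low one at 2.76 (nearest 2.91), both in Mono2, and Sfp38D a high one at 3.13 (nearest 2.92) in Mono3. In Prom3 females with Mono males, Sfp24Bb had a high array at 3.38 (nearest 3.22). In Prom females with Prom males, Sfp65A had a high array at 4.46 (nearest 4.20) in Prom2, Acp53C14b a low one at 3.28 (nearest 3.46) in Prom3, and Sfp33A3 a high one at 3.07 (nearest 2.93) in Prom4.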

How the results depend on the processing

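The count of members passing was 0 of 21 for the female regime, the mate regime, the mate regime within either kind of female and the interaction. It stayed at 0 under every alternative in which calls were counted. Calls were not counted with arrays centred on the Y-linked genes, and single arrays were left out for the populations only. Among the members, only Acp65Aa and Acp95EF have a mean of at least 6. Treating the 32 arrays as independent called 396 probe sets for the female regime, and female population as a random block 181, against 0 with population means; 0 members were among them. With population number as a replicate block the female regime count was 0 of 21, without the female population term (no replicate block) the mate count was 0 of 21, and the block changed no call. For populations, the count was 1 of 21 without the cuticle gene, 1 with only probe sets of mean at least 6, and 1 to 2 with each population or array left out. For batch it was 0 under cyclic loess and 0 with only probe sets of mean at least 6, which removes most members. The median member difference was 0.023 for the female regime with arrays centred on the Y-linked genes, against -0.0085 as deposited. The median over all probe sets was 0.027 with that centring, against -0.0041. For the interaction the median member difference was -0.033 with that centring, against 0.015 as deposited. The median over all probe sets was then -0.048, against -0.0003. The member median of the interaction was 0.0615 in batch 1 alone, 0.068 in batch 2 alone and -0.0037 to 0.062 with each population left out. Signs turned for Acp62F (0.014) and Acp63F (-0.044) by female regime in batch 2 alone, and for Acp95EF by mate regime under cyclic loess (0.0052), in batch 1 alone (0.023) and without Mono1, Mono4 or Prom3 (-0.0373 to 0.017 with each population left out); the cause was not tested. Using all probe sets of the members changes nothing, since each has 1. The 95% intervals of the seminal fluid genes reached up to 0.15 units to either side for the female regime, which limits what could be detected at these low signals.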
